A study of Mus musculus with 6 samples.

Results

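The genes described here are 10 accessory genes of the smooth muscle contractile apparatus, namely Lmod1, Smtn, Synpo2, Des, Csrp1, Csrp2, Pdlim7, Fhl1, Jph2 and Mrvi1. They were taken by symbol from the 22482 protein-coding genes of the series, and each stood in 1 row of the deposited gene table. RNA was sequenced from cultured aortic vascular smooth muscle cells (VSMCs) of C57BL/6 mice, grown in medium with 10% fetal bovine serum. The 3 libraries labelled Myocd knockdown came from cells given a knockdown adenovirus for 48 h. The 3 libraries labelled control came from cells given a negative control adenovirus for the same time, although the series' design text calls these cells wildtype. What sequence and promoter each virus carried is not stated. No label ties the libraries of a group to separate cultures or animals, so every p-value sets a difference against library spread that could be technical only.

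Myocardin, encoded by Myocd, is a coactivator of serum response factor, which binds CArG boxes near smooth muscle genes. The products of the 10 genes do not form the actin and myosin filaments themselves. They seed or bundle actin (leiomodin, smoothelin, synaptopodin 2), build the intermediate filament network (desmin), dock on dense bodies and focal adhesions through LIM domains (CRP1, CRP2, PDLIM7, FHL1), or couple membrane and store calcium signalling (junctophilin 2 and IRAG, the Mrvi1 product). Loss of such proteins is a usual feature of VSMCs that leave the contractile state in culture.

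The labels and the measured Myocd level ran opposite ways. Myocd stood at 131.7, 130.1 and 145.5 FPKM (fragments scaled to transcript length and library size) in the libraries labelled knockdown, against 0.0355, 0 and 0.125 FPKM in those labelled control. Both groups keep the names on their labels here, and a rise always means a higher level in the Myocd-rich libraries, those labelled knockdown. Recovered fragments per library numbered 7528154 to 9117649 in the libraries labelled knockdown and 9303510 to 9793781 in those labelled control. The contractile markers of the cells differed widely in level. Myh11 averaged 0.0604 FPKM in libraries labelled knockdown and 0.0132 FPKM in those labelled control, and Cnn1 averaged 0.275 and 0.0270 FPKM. In the same order, Lmod1 averaged 0.733 and 0.0774 FPKM, Tagln 7.52 and 0.637 FPKM, and Mylk 7.74 and 7.31 FPKM. Smtn averaged 56.5 and 57.6 FPKM, and Acta2 340.2 and 67.2 FPKM. All 7 contractile markers summed to between 398.7 and 420.5 FPKM in libraries labelled knockdown and between 121.6 and 145.7 FPKM in those labelled control. Acta2 and Smtn made up most of these sums. The 6 markers of modulated cells summed to between 3414 and 3648 FPKM and between 3154 and 3520 FPKM, in the same order. Limma and edgeR each called Thbs1, Lgals3 and Tnc higher (243.7 against 134.9, 823.7 against 675.9 and 8.16 against 5.02 FPKM). EdgeR also called Spp1 lower (1249 against 1414 FPKM, adjusted p = 0.00813), which limma did not (0.0783). Vcam1 and Ly6a were called by neither. The skeletal muscle markers Myog and Ckm were listed at 0 in all 6 libraries. The summed level of the 10 skeletal and cardiac markers ran from 14.8 to 16.4 FPKM in libraries labelled knockdown and from 7.93 to 9.90 FPKM in those labelled control. Acta1 averaged 9.20 against 0.0720 FPKM, while Tnnt2 averaged 5.13 against 6.13 FPKM and Tnni3 0.639 against 2.34 FPKM, in libraries labelled knockdown against control; of these 3, the ones tested, limma called Acta1 only. The 5 endothelial markers summed to between 1.30 and 2.34 FPKM in libraries labelled knockdown and between 0.447 and 1.01 FPKM in those labelled control, and Vwf was the single one tested. Vwf averaged 1.24 against 0.185 FPKM in libraries labelled knockdown against control and passed in limma (adjusted p = 0.0346), but edgeR did not call it (adjusted p = 0.0869), with a count ratio of 2.22. Acta1 and Vwf reached the minimum of 0.5 FPKM in 3 libraries only through the libraries labelled knockdown, so limma could call them higher only. Fibroblast markers summed to between 59.5 and 70.8 FPKM in libraries labelled knockdown and between 59.8 and 70.2 FPKM in those labelled control. Macrophage markers, 4 of 5 in the table, summed to between 4.23 and 5.53 FPKM in libraries labelled knockdown and between 2.83 and 5.23 FPKM in those labelled control. Mesothelial and epithelial markers, nearly all of it Msln, summed to between 76.3 and 89.0 FPKM in libraries labelled knockdown and between 73.1 and 79.7 FPKM in those labelled control. The part of other cells in the results below was not tested, and in bulk RNA a change in the number of cells of a type cannot be told apart from a change in RNA per cell.

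Of the 10 genes, 6 rose in the libraries labelled knockdown, 0 fell and 4 did not pass (limma on log2(FPKM + 0.1), adjusted p under 0.05). Lmod1, Mrvi1, Synpo2, Jph2, Csrp1 and Des rose, and Smtn, Csrp2, Pdlim7 and Fhl1 did not pass. Lmod1 and Mrvi1 reached the minimum of 0.5 FPKM in 3 libraries only through the libraries labelled knockdown. For them only a rise could be called, and their lack of overlap in FPKM followed from this filter. The count of 6, the 7 genes without overlap and the median below include them. Across all 11612 tested genes 1.83% were called higher and 1.61% lower. At an unadjusted p under 0.05 limma found the same 6, and 2603 of all 11612 genes in either direction. EdgeR on the fragments called 6 higher and 0 lower of the 9 it tested, with Fhl1 in and Mrvi1 not tested. Lmod1 met edgeR's filter on low counts only through the libraries labelled knockdown, so there too only a rise could be called. In that fit 5.45% of genes were called higher and 4.5% lower. DESeq2 called 4 higher (Synpo2, Des, Csrp1 and Jph2) of the 7 genes for which it gave an adjusted p. It gave one for 7714 genes in all, of which it called 5.19% higher and 4.19% lower. In 7 of the 10 genes every library labelled knockdown was above every library labelled control, which held for 13.3% of tested genes; the same 7 were separated on counts, as were 14.4% of tested genes. The median log2 fold change of the 10 genes was 0.40, against -0.0098 for all tested genes. The genes were chosen with earlier results of these data known, so these counts describe the list and are not independent support for it.

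The levels of the 10 genes covered a wide range. In libraries labelled control Des was highest with 108.0 ± 0.853 FPKM, followed by Csrp1 (73.3 ± 2.98), Smtn (57.6 ± 6.72), Csrp2 (46.2 ± 1.24) and Pdlim7 (37.8 ± 1.41), then Synpo2 (3.46 ± 0.171), Jph2 (3.39 ± 0.656), Fhl1 (1.51 ± 0.350), Lmod1 (0.0774 ± 0.0143) and Mrvi1 (0.0195 ± 0.0338; SD, n = 3). Of these neighbours only Synpo2 and Jph2 had overlapping ranges. In libraries labelled knockdown Jph2 stood above Synpo2 and Mrvi1 above Lmod1, each pair with overlapping ranges, and the order of the others was the same. Des and Csrp1 together held 58.2% of the summed FPKM of the 10 genes in libraries labelled knockdown and 54.7% in those labelled control. The summed FPKM was 371.5, 365.8 and 382.6 in libraries labelled knockdown, against 323.7, 327.6 and 342.6 in those labelled control, so the groups did not overlap. Most of the gain in FPKM thus came from the abundant Csrp1 and Des, while the largest ratios belonged to the rare Lmod1 and Mrvi1. Only 0.52% of tested genes averaging below 1 FPKM over the 6 libraries were called higher, 3 genes in all. Lmod1 and Mrvi1 are among them, but both reached the minimum of 0.5 FPKM in 3 libraries only through the libraries labelled knockdown, so nothing is read from that share. The share was 0.798% from 1 to 10 FPKM, where Synpo2 and Jph2 lie, 1.63% from 10 to 40 FPKM and 4.77% above, where Des and Csrp1 lie.

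**Figure D1:**
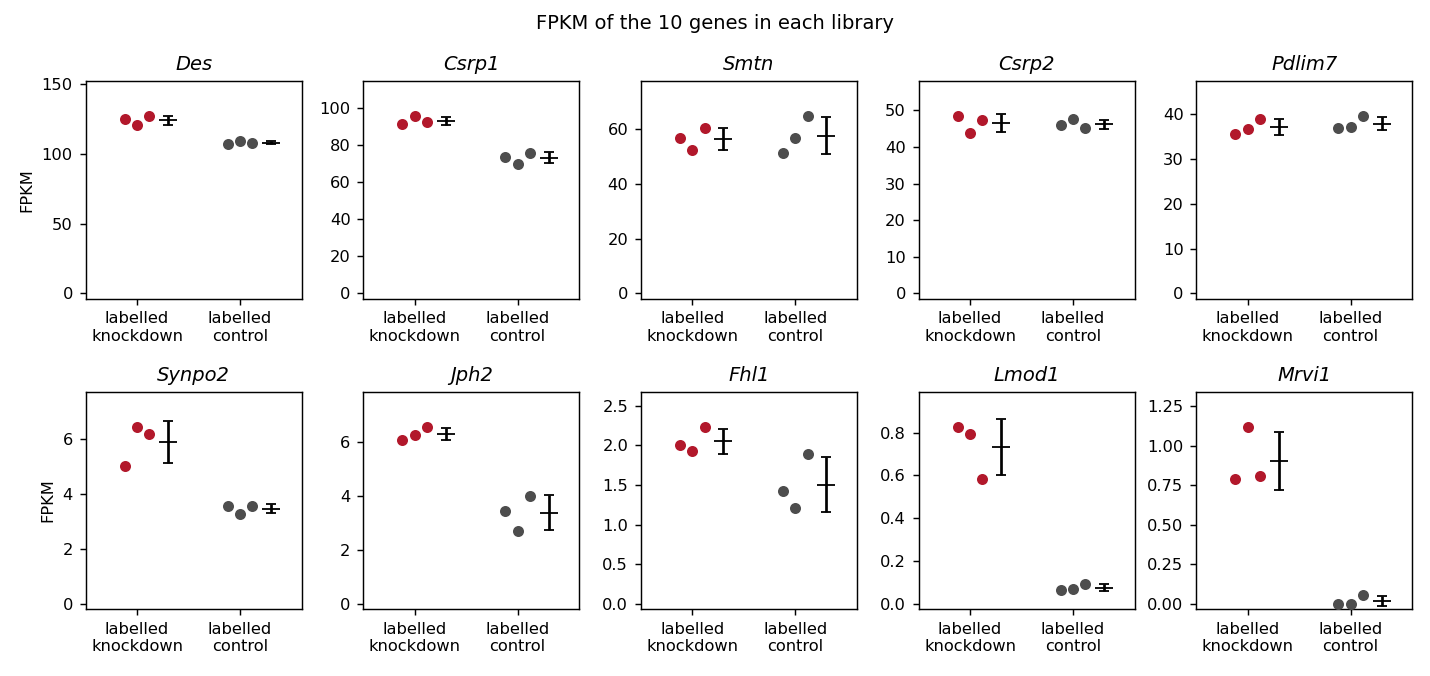
Each panel plots the FPKM of 1 gene in the 3 libraries labelled knockdown (red, left) and the 3 labelled control (grey, right), with the mean and SD beside them; the vertical scale differs between panels. Lmod1 and Mrvi1 were close to 0 in the libraries labelled control, Des and Csrp1 rose by a small step from a high level, and the groups overlapped for Smtn, Csrp2 and Pdlim7.

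Lmod1, the smooth muscle leiomodin that nucleates actin filaments, had the largest fold change of the 3 actin-binding genes, though Synpo2 had the smaller p in limma. It measured 0.825, 0.791 and 0.583 FPKM in libraries labelled knockdown, against 0.0673, 0.0711 and 0.0937 FPKM in those labelled control. The groups were far apart, but both were low: the recovered fragments were 34, 32 and 20 in libraries labelled knockdown, against 3, 3 and 4 in those labelled control. The ratio of mean FPKM was 9.48. By limma the log2 fold change came to 2.22 (SE 0.41, adjusted p = 0.0383), and by edgeR to 3.22 (adjusted p = 0.000466). The size depends on the value added before the log: limma gave 3.08 with 0.01 FPKM added (adjusted p = 0.052) and 0.68 with 1 FPKM (adjusted p = 0.0428). Even at the higher level Lmod1 exceeded only 2.70% of tested genes. Lmod1 (ENSMUSG00000048096) occupies 135324807 to 135368065 of chromosome 1, plus strand (mm10).

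Synpo2, which bundles actin at Z discs and dense bodies, rose by less. It measured 5.02, 6.43 and 6.19 FPKM in libraries labelled knockdown, against 3.57, 3.27 and 3.56 FPKM in those labelled control. The first knockdown library was the lowest of its group and still above every control library. Limma put the log2 fold change at 0.74 (SE 0.13, adjusted p = 0.0334) and edgeR at 0.75 (adjusted p = 0.00111). Smtn, an actin-binding protein long used as a marker of the contractile state, did not pass. It measured 56.7, 52.5 and 60.4 FPKM in libraries labelled knockdown, against 51.3, 56.8 and 64.7 FPKM in those labelled control. The groups overlapped fully, and the spread among the control libraries exceeded the difference of the means. The log2 fold change was -0.02 with a 95% interval from -0.24 to 0.19 (limma adjusted p = 0.904), so a change of the size seen for Synpo2 lies outside this interval. Synpo2 (ENSMUSG00000050315) lies on chromosome 3 from 123076519 to 123236149, and Smtn (ENSMUSG00000020439) on chromosome 11 from 3517523 to 3540612, both minus strand (mm10).

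Desmin is the muscle intermediate filament that links dense bodies to each other and to the membrane. Des measured 124.8, 120.5 and 126.7 FPKM in libraries labelled knockdown, against 107.2, 108.9 and 107.8 FPKM in those labelled control. The libraries of each group lay close together and the groups did not overlap, though the means differed by only 14.9%. Limma put the log2 fold change at 0.20 (SE 0.04, adjusted p = 0.0411) and edgeR at 0.24 (adjusted p = 0.00116). By size of fold change Des ranked only 1859 from the top of the 11612 tested genes, and with quantile normalization its limma adjusted p was 0.051. Des (ENSMUSG00000026208) occupies 75360329 to 75375015 of chromosome 1, plus strand (mm10).

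The cysteine-rich proteins CRP1 and CRP2 are close relatives that carry LIM domains and bind alpha-actinin and zyxin. Csrp1 measured 91.4, 95.7 and 92.7 FPKM in libraries labelled knockdown, against 73.7, 70.1 and 76.0 FPKM in those labelled control. The groups were well separated, with a log2 fold change of 0.35 by limma (SE 0.05, adjusted p = 0.0146) and 0.36 by edgeR (adjusted p = 0.000829). Csrp1 had the smallest limma p of the 10 genes and ranked 88 by limma p among all tested genes. Csrp2 measured 48.3, 43.9 and 47.4 FPKM in libraries labelled knockdown, against 46.0, 47.5 and 45.0 FPKM in those labelled control. Its log2 fold change was 0.0099 with a 95% interval from -0.12 to 0.14 (limma adjusted p = 0.936). That interval does not reach the value for Csrp1, whose own interval ran from 0.24 to 0.46; the difference between the genes was not tested. Csrp1 (ENSMUSG00000026421) lies on chromosome 1 from 135720061 to 135752232, and Csrp2 (ENSMUSG00000020186) on chromosome 10 from 110920177 to 110939599, both plus strand (mm10).

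Pdlim7, also called LMP or Enigma, joins a PDZ domain to LIM domains and sits on stress fibres. It measured 35.6, 36.8 and 38.9 FPKM in libraries labelled knockdown, against 37.0, 37.1 and 39.5 FPKM in those labelled control. The groups overlapped, and the log2 fold change was -0.03 with a 95% interval from -0.16 to 0.10 (limma adjusted p = 0.795). On fragments the sign was the other way (edgeR 0.08, adjusted p = 0.410). Pdlim7 (ENSMUSG00000021493) occupies 55495795 to 55513676 of chromosome 13, minus strand (mm10).

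Fhl1, a LIM-only protein of striated and smooth muscle, gave different answers in the FPKM and count columns. It measured 2.0, 1.93 and 2.23 FPKM in libraries labelled knockdown, against 1.42, 1.21 and 1.89 FPKM in those labelled control. The lowest knockdown library was barely above the third control library, and limma did not call it (log2 fold change 0.44, SE 0.21, 95% interval -0.05 to 0.94, adjusted p = 0.267). The recovered fragments were 48, 44 and 44 in libraries labelled knockdown, against 26, 23 and 30 in those labelled control, which edgeR called (log2 fold change 0.95, adjusted p = 0.0218). Mean FPKM was 36.3% higher and the mean deposited count 93.1% higher in the libraries labelled knockdown. In edgeR fits that left out 1 library, the adjusted p of Fhl1 ran from 0.0299 to 0.0898 and passed in 1 of 6. Fhl1 (ENSMUSG00000023092) occupies 56731787 to 56793346 of chromosome X, plus strand (mm10).

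The gap between the Fhl1 columns was measured as the deposited count divided by FPKM. FPKM divides fragments by transcript length, so this quotient is proportional to the mean length over which a gene's fragments were spread, and it moves when fragments are assigned to longer or shorter transcripts. For Fhl1 it was 23.5 ± 0.345 in libraries labelled knockdown and 16.8 ± 1.57 in libraries labelled control (SD, n = 3 each). Centred on each library's median, the log2 difference was 0.49 (SE 0.07, limma adjusted p = 0.199), so it did not pass among the 11334 genes compared, of which 0.00882% were called. Of those genes 1.78% had a larger absolute difference. Lmod1, Csrp1, Csrp2 and Jph2 had differences of at most 0.0023, and Pdlim7 had 0.10 (adjusted p = 0.688). The deposited gene table does not give single Fhl1 transcripts, and this comparison was chosen after the values were seen.

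**Figure D2:**
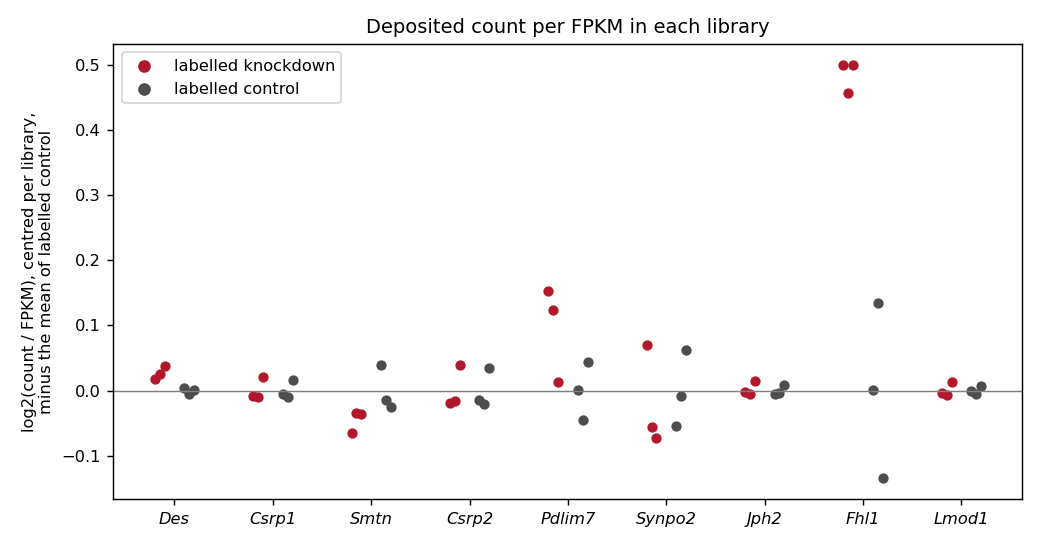
The vertical axis is log2 of deposited count over FPKM, centred on each library's median and set relative to the mean of the libraries labelled control; points are libraries labelled knockdown (red, left) and control (grey, right) for the 9 genes above 0 in every library. Fhl1 stands apart with a difference of 0.49, while Lmod1, Csrp1, Csrp2 and Jph2 differ by at most 0.0023.

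The calcium-handling genes Jph2 and Mrvi1 both rose. Junctophilin 2 tethers the sarcoplasmic reticulum to the plasma membrane. Jph2 measured 6.10, 6.28 and 6.56 FPKM in libraries labelled knockdown, against 3.45, 2.70 and 4.01 FPKM in those labelled control. The knockdown libraries were close together, the control libraries were more spread, and the groups did not overlap. Mean FPKM was 86.5% higher and the log2 fold change 0.90 by limma (SE 0.16, adjusted p = 0.0317) and 0.91 by edgeR (adjusted p = 0.0012). Jph2 (ENSMUSG00000017817) occupies 163336242 to 163397993 of chromosome 2, minus strand (mm10).

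Mrvi1 encodes IRAG, the substrate through which cGMP kinase restrains calcium release at the IP3 receptor. It measured 0.787, 1.12 and 0.809 FPKM in libraries labelled knockdown, against 0, 0 and 0.0585 FPKM in those labelled control. The recovered fragments behind these values were 10, 5 and 12 in libraries labelled knockdown, against 0, 0 and 4 in those labelled control. A count of 0 leaves room for an expected count of up to 3 fragments. The knockdown library with the fewest fragments thus had the highest FPKM, and the count per FPKM ranged from 4.52 to 17.8 in that group and was 65.8 in the single control library with fragments. Limma called the gene higher (log2 fold change 3.09, SE 0.47, adjusted p = 0.0221). EdgeR left it out for its low count, and without a filter gave 2.82 (adjusted p = 0.0759), so the call rests on the FPKM column. With 0.01 FPKM added in place of 0.1, limma gave 5.57 (adjusted p = 0.059), and with 1 FPKM 0.90 (adjusted p = 0.0237). Mrvi1 (ENSMUSG00000005611) occupies 110868266 to 110982461 of chromosome 7, minus strand (mm10).

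**Figure D3:**
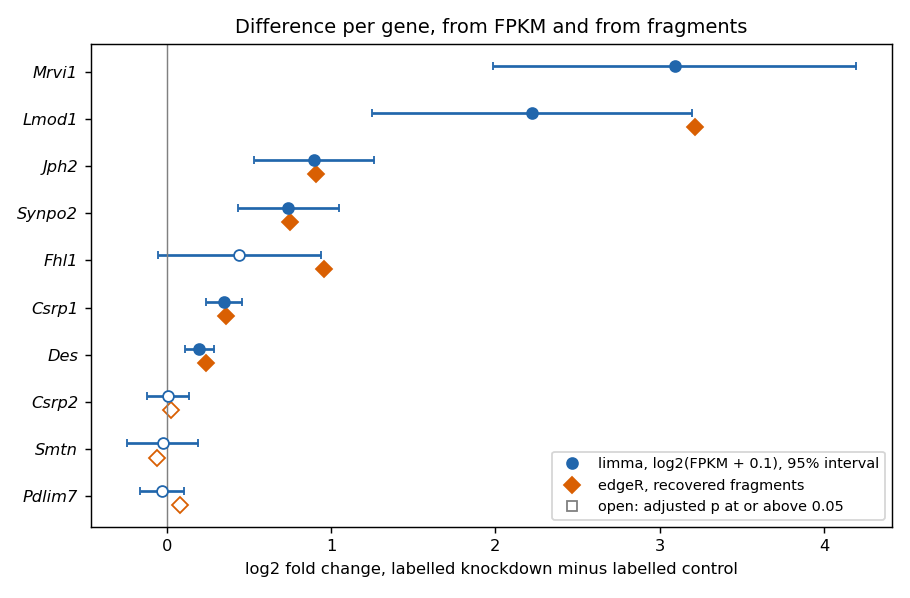
The horizontal axis is the log2 fold change of libraries labelled knockdown minus those labelled control; circles are limma on log2(FPKM + 0.1) with 95% intervals, diamonds are edgeR on recovered fragments, and open symbols did not pass. Both tools placed Lmod1, Jph2, Synpo2, Csrp1 and Des above 0; Fhl1 passed only on fragments, and Mrvi1 has no edgeR value.

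Both tools called 5 genes, Lmod1, Synpo2, Des, Csrp1 and Jph2. Each stayed called in all 6 edgeR fits that left out 1 library, with adjusted p up to 0.0146. Nothing is read from this for Lmod1, which met the edgeR filter only through the libraries labelled knockdown. In limma Lmod1, Synpo2 and Des passed in 0 of 6 such fits (adjusted p 0.0760 to 0.148 for Lmod1, 0.0605 to 0.111 for Synpo2 and 0.0840 to 0.130 for Des), although their log2 fold changes stayed between 2.14 and 2.36, 0.67 and 0.85, and 0.18 and 0.22. Csrp1 passed without knockdown 3 (adjusted p = 0.0427) and without control 3 (0.0329) and missed in the other 4 (0.0605 to 0.0694). Jph2 and Mrvi1 passed only without control 3 (adjusted p = 0.0395 and 0.0399) and otherwise reached 0.0766 to 0.101 and 0.0649 to 0.12. With no filter on low genes, limma missed Synpo2 (adjusted p = 0.053) and Jph2 (0.0542), and without its trend it missed Des (0.116), Csrp1 (0.0613) and Jph2 (0.0582). Leaving out both replicate 3 libraries, limma called 0 of the 10 genes and edgeR 6, Fhl1 among them. An exact two-sided permutation test of 1 gene cannot go below p = 0.1 with 3 against 3 libraries, the value reached by each of the 7 genes whose groups did not overlap.

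RefSeq promoter windows, 250 bases before to 50 bases after a transcript start (GRCm38.p6), were at hand for 9 of the 10 genes in 13 windows, Csrp2 being the exception. They were searched for the CArG box, the palindromic element of serum response factor, and for the MCAT element of TEAD factors (CATTCC, or GGAATG on the other strand), on both strands; no match of one overlapped a match of the other here. An exact CArG box stood in 1.63% of all 32851 windows and in 1 of the 13, that of Fhl1, where it began 102 bases before the start. With 1 mismatch allowed in its A and T run, 9.98% of all windows held one, and both windows of Jph2 did as well. MCAT letters stood in 14.7% of all windows and in 1 window each of Lmod1, Mrvi1 and Smtn. The 250 bases before the start are shown for Fhl1 as the single exact match, for Jph2 as the near match among the genes that rose, and for Lmod1 as the largest rise called by both tools. Capitals mark the CArG box, exact or with 1 mismatch, or the MCAT letters, and all run 5′ to 3′ on the gene's strand.
Fhl1, chrX:56779433-56779682, plus strand: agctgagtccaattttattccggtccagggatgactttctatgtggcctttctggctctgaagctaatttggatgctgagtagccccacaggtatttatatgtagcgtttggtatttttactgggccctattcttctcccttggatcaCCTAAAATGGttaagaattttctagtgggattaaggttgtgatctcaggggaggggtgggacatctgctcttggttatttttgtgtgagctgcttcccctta
Jph2, chr2:163397994-163398243, minus strand: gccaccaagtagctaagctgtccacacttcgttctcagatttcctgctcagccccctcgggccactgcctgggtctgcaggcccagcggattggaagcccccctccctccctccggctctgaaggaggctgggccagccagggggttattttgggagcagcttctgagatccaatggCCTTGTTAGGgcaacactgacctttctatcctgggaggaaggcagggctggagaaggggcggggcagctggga
Lmod1, chr1:135324563-135324812, plus strand: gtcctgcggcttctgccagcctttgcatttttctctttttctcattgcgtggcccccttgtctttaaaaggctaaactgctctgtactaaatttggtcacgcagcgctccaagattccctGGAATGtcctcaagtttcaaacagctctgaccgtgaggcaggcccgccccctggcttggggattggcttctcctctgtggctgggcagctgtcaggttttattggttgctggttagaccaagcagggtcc

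The Fhl1 window holds the box CCTAAAATGG and is 1 of 2 Fhl1 windows at hand, and the Jph2 window holds CCTTGTTAGG. Both Fhl1 windows lie inside the gene, which begins at 56731787, so its outermost start had no window. The Lmod1 window holds no CArG box and 1 MCAT match that begins 130 bases before the start. The windows of Des, Csrp1, Synpo2 and Pdlim7 held none of these letters. A match describes these letters only, and elements farther from a start or inside introns were outside the windows.

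Relatives of these genes were taken as 1 list. Of 38 relatives (tropomodulins, smoothelin-like and synaptopodin genes, other intermediate filaments, CRIP, junctophilin, PDZ-LIM and FHL genes, and the cGMP kinase and IP3 receptors) 18 were expressed highly enough to test. Of these, 1 rose, 0 fell and 17 did not pass in limma, against 1.83% higher and 1.61% lower of all tested genes. The median log2 fold change was 0.03, with a range from -0.14 to 0.37. These values leave out the 20 relatives that were too low. Among those was Tmod1, tropomodulin 1, which caps actin filaments and is related to leiomodin, at 0.185, 0.188 and 0.296 FPKM in libraries labelled knockdown, against 0, 0.0301 and 0 FPKM in those labelled control. Its groups did not overlap, on 20 fragments in all in libraries labelled knockdown and 1 in those labelled control, and edgeR without a filter called it higher (adjusted p = 0.0273). With its filter edgeR called 2 of 20 higher, Pdlim5 and Nes, and 1 lower, Vim. Of all genes it tested, edgeR called 5.45% higher and 4.5% lower. The relative that rose was Pdlim5, the PDZ-LIM protein ENH, at 55.9 ± 3.13 FPKM in libraries labelled knockdown and 45.7 ± 0.590 FPKM in libraries labelled control (log2 0.29, limma adjusted p = 0.0382). The most abundant relatives did not pass. Vimentin (Vim), the main intermediate filament of cultured VSMCs, averaged 2420 FPKM in libraries labelled knockdown and 2672 FPKM in those labelled control (limma adjusted p = 0.0763; edgeR log2 -0.12, adjusted p = 0.000754). Crip1 averaged 397.9 and 349.4 FPKM (limma adjusted p = 0.165), and Crip2 94.6 and 89.0 FPKM (limma adjusted p = 0.377), in libraries labelled knockdown and in those labelled control. Lmod2, Lmod3, Crip3 and Fhl5 were listed at 0 in every library, so Lmod1 was the only leiomodin with a value above 0. Prkg1, the cGMP kinase that phosphorylates IRAG, averaged 0.170 FPKM in libraries labelled knockdown and 0.0709 FPKM in those labelled control, too low to test.

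Dense body and actin cytoskeleton genes, the structures on which several of the 10 proteins dock, were all 25 expressed. Of these 4 rose, 0 fell and 21 did not pass in limma, against 1.83% higher and 1.61% lower of all tested genes. Of all tested genes averaging 40 FPKM or more, where many of this list lie, limma called 4.77% higher. The median log2 fold change of the list was 0.19. EdgeR called 10 higher and 0 lower, against 5.45% higher and 4.5% lower of all genes it tested. Lpp, a zyxin relative that binds alpha-actinin, rose to 47.8 ± 1.28 FPKM in libraries labelled knockdown, against 38.1 ± 1.96 FPKM in those labelled control (log2 0.33, limma adjusted p = 0.0286). Vinculin (Vcl), which links actin to adhesions, and the actin crosslinker Flna rose by 0.30 and 0.24 (limma adjusted p = 0.0142 and 0.0414). The most abundant genes that did not pass in limma were Actn4 (171.9 against 153.5 FPKM, limma adjusted p = 0.142), Actn1 (100.6 against 89.7 FPKM, 0.0787) and Ilk (87.5 against 95.8 FPKM, 0.15), in libraries labelled knockdown against control. On fragments edgeR called Actn4 and Actn1 higher (adjusted p = 0.0328 and 0.00594) but not Ilk (0.621).

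Among 18 core contractile genes 13 were tested, with a median log2 fold change of 0.28. In limma 3 rose, 0 fell and 10 did not pass, against 1.83% higher and 1.61% lower of all tested genes. By edgeR 10 were called higher and 0 lower, against 5.45% higher and 4.5% lower of all genes it tested. Acta2, the smooth muscle alpha-actin, averaged 340.2 FPKM in libraries labelled knockdown and 67.2 FPKM in those labelled control (log2 2.34, limma adjusted p = 4.40e-06). Actg2 and Myl9 rose by 4.79 and 2.52 (limma adjusted p = 1.89e-05 and 0.0142), though the actin genes are near-identical and may share fragments. Without the libraries labelled knockdown Actg2 and Tagln would not have reached the minimum of 0.5 FPKM in 3 libraries, and the median includes both. Actg2, Tagln and Myl9 are among the 10 edgeR calls. They met edgeR's filter on low counts only through the libraries labelled knockdown, so edgeR could only call them higher. The most abundant of those that did not pass in limma were Cav1 (265.1 against 237.2 FPKM, limma adjusted p = 0.117), Tpm1 (258.6 against 203.0 FPKM, 0.0555) and Cald1 (180.8 against 152.2 FPKM, 0.0634), in libraries labelled knockdown against control. On fragments edgeR called each of them higher (adjusted p = 0.0021 for Cav1, 0.00718 for Tpm1 and 0.000358 for Cald1). By mean FPKM Lmod1 was 9.48-fold and Acta2 5.06-fold higher in libraries labelled knockdown, and edgeR gave log2 fold changes of 3.22 and 2.35; the nearer limma values, 2.22 and 2.34, hold for 0.1 FPKM added. The difference between the genes was not tested. The log2 fold changes of Jph2 and Synpo2 lay between Acta2 and the structural genes of the dense body.

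**Figure D4:**
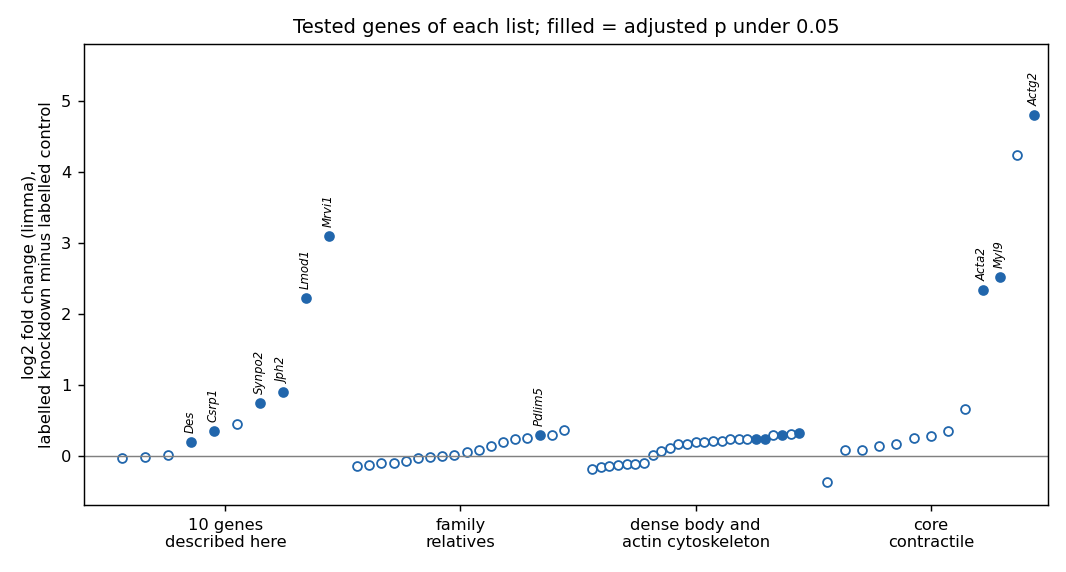
Points are tested genes, ordered by log2 fold change (libraries labelled knockdown minus control, vertical axis) within the 10 genes described here and 3 related lists; filled points passed limma and are named except in the dense body list. Family relatives ranged from -0.14 to 0.37 and 1 passed, while Lmod1 stands at 2.22, Mrvi1 at 3.09, Acta2 at 2.34 and Actg2 at 4.79.

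The profile over the 6 libraries was compared between genes as the root mean square difference of log2(FPKM + 0.1), each gene centred on its own mean. Acta2 was the gene most like Lmod1 (0.15), followed by the chemokine gene Ccl5 (0.24) and the predicted gene Gm10419 (0.31). That order was computed with 0.1 FPKM added, which exceeds the Lmod1 level in the libraries labelled control: by mean FPKM Lmod1 was 9.48-fold, Acta2 5.06-fold and Ccl5 5.10-fold higher in libraries labelled knockdown. For Des the nearest were Ttc14 (0.0092), Atf5 (0.013) and Slc39a1 (0.015), and for Csrp1 they were Crtc2 (0.0084), Mplkip (0.033) and Rpl39 (0.033). Small values are easily reached by genes of small change, and the likeness describes 6 libraries only.

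The lncRNA table pairs 7 noncoding transcripts with Smtn, Csrp1, Csrp2, Mrvi1 and Pdlim7. Of these 3 were at 0 FPKM in every library, and 1 could be tested, the intronic antisense transcript AK088988 of Csrp2. It measured 0.482, 0 and 0 FPKM in libraries labelled knockdown, against 0.892, 0 and 0.219 FPKM in those labelled control. It was not called (log2 -0.81, SE 1.08, limma adjusted p = 0.767), so 0 of 1 passed, with 0 at an unadjusted p under 0.05, against 4.26% of 4955 tested transcripts. No other tool was run on this table. The natural antisense transcripts of Smtn, whose fragments cannot be told from those of Smtn without strand, stayed at or below 0.0584 FPKM. AK188772, a natural antisense transcript of Csrp1, measured 0.724 FPKM in the third library labelled knockdown and 0 FPKM in all others, so it was not tested.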

How the data were processed

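Per the submitters' processing notes, the tools were HISAT2 2.0.4, cutadapt, Cuffdiff 2.2.1 and Cufflinks; builds mm10 and mm9 are named without roles. The annotation and any use of strand are not given there. The authors deposited FPKM values and estimated counts per library for genes and for lncRNA transcripts. The deposited estimated counts are fragments times 1 constant per library (0.916 to 1.20); divided by it, 90.1% to 90.4% of values above 0 lay within 0.01 of a whole number. Rows of 79 repeated symbols were summed, giving 22482 genes. Table starts have 1 added, which matched 6261 RefSeq GRCm38 gene starts, against 472 without.

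Log2(FPKM + 0.1) was fitted in R 4.3.3 by limma 3.58.1, trend on, with group as the only term, for genes with at least 0.5 FPKM (transcripts 0.1 FPKM) in 3 libraries, two-sided, with Benjamini-Hochberg adjustment over the table. Fold changes on this scale understate low genes. Alternatives included edgeR 4.0.16 (quasi-likelihood, TMM) and DESeq2 1.42.0 on recovered fragments rounded to whole numbers, other pseudocounts, filters and scalings, a replicate block, and leaving out libraries. The fits were tested on simulated data. The simulation left out genes with as few fragments as Lmod1 and Mrvi1, and its changes were larger than those of Des and Csrp1. Each of the 10 genes is named; in the related lists, called genes (at most 5) and the 3 most abundant others; 1 called dense body gene is not reported here. Nes, Tmod1, Tnnt2, Tnni3, Vim in edgeR, and genes listed at 0 were named after their values were seen. The genes and lists were chosen with earlier results of these data known. Intervals on fold changes rest on the limma SE, so they cover the spread between libraries, which could be technical only. The limit for a count of 0 covers counting error only.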

Additional observations from a re-analysis of the deposited data

How the results depend on the processing

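Of the 10 genes limma called 6, and 4 to 6 with other pseudocounts, filters, robust estimation, library weights or scalings. The count was 3 without the trend, 0 to 3 without 1 library, and 0 without both replicate 3 libraries; edgeR gave 5 to 7 without 1 library and 6 without both replicate 3 libraries. DESeq2 called 4 of the 7 genes for which it gave an adjusted p. With the replicate number as a block limma called 1, Csrp1, and edgeR 6. Deviations of same-numbered libraries correlated at 0.037, -0.0039 and 0.0999, and those of different-numbered libraries at -0.0876 to 0.0588. The main fit did not take the number to pair the libraries, and whether it does was not settled. Over all genes, 400 calls became 144 without the trend, 624 with library weights, 243 with the replicate block, 1150 in edgeR, 1715 in edgeR with the block, 1168 in edgeR with no filter, 723 in DESeq2, 44 to 178 without 1 library and 76 without both replicate 3 libraries. Calls among family relatives (1) became 2 with no filter, robust estimation or library weights, 0 without the trend or both replicate 3 libraries, 0 to 1 without 1 library, 3 in edgeR and DESeq2, 5 in edgeR with the block and 4 in edgeR with no filter. Dense body calls (4) became 0 without the trend or both replicate 3 libraries, 0 to 1 without 1 library, 10 in edgeR with or without its filter, 13 with the block and 9 in DESeq2. Core contractile calls (3) became 7 with library weights, 6 with the replicate block, 10 in each edgeR fit and 5 in DESeq2, and 2 to 4 without 1 library. The 3 flat genes changed sign: Smtn (0.014 without both replicate 3 libraries, -0.10 to 0.063 without 1), Csrp2 (-0.0029 with library weights, -0.022 without both replicate 3 libraries, -0.018 to 0.052 without 1) and Pdlim7 (0.078 in edgeR, 0.081 with the block, 0.075 with no filter, 0.076 in DESeq2, -0.064 to 0.0019 without 1). The share of promoters with a CArG box was 9.98% with 1 mismatch and 1.47% in the 250 bases before the start. The causes were not tested. Lmod1, Mrvi1 and Fhl1 rest on few fragments.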
